A study of Caenorhabditis elegans with 2 samples.

Results

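Genes of Caenorhabditis elegans that encode linker histones or replication-independent histone variants were followed across the binding map of PBRM-1. They were the 10 genes his-24, hil-1, hil-2, hil-3, hil-4, his-71, his-72, his-74, htz-1 and hcp-3, chosen by name, with earlier results of these data known, out of 19973 protein-coding genes on the nuclear chromosomes. PBRM-1, the polybromo protein, belongs to the PBAF-type SWI/SNF remodeller, which slides and evicts nucleosomes. Its binding was profiled by chromatin immunoprecipitation followed by sequencing (ChIP-seq) in whole young adults of strain RW12226, grown to 64.5 h from synchronised larvae that had been starved at the L1 stage after bleaching. In this strain (st12226[pbrm-1::TY1::EGFP::3xFLAG] I) a CRISPR insertion on chromosome I fuses the endogenous pbrm-1 gene to the tags, so every sample carries the fusion, and chromatin was recovered with an antibody to GFP. The 2 biological replicates form 1 group. With 1 group no contrast between conditions was possible, and signal from whole animals cannot be assigned to a tissue. A control experiment named in the labels was not used here, so peak signal was not compared with a control.

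Linker histones bind the DNA that enters and leaves the nucleosome and help to compact the fibre, and his-24 is the linker histone gene known for its part in germline silencing in this species. The variants are built into nucleosomes outside S phase by dedicated chaperones: H3.3 (his-71, his-72 and, as an H3.3-type gene, his-74) marks transcribed and turned-over chromatin, H2A.Z (htz-1) flanks promoters, and the CENP-A protein HCP-3 specifies centromeric chromatin, which in worms runs along the whole chromosome. Unlike the S-phase core histone genes, which lie in repeated clusters, these genes stand singly in the genome.

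The peak lists give each peak a summit, a score and a signal value made by the authors. Signal has no stated scale. Levels were compared within 1 list, and where replicate 2 is divided by replicate 1 the ratio is read only against the same ratio over all series peaks. The series list was made by the authors from both replicates and holds 3243 peaks with a median signal of 92.9. A conservative series list, also by the authors, holds 2917. The list of replicate 1 holds 1370 peaks (median signal 64.2) and that of replicate 2 holds 2173 (median 69.4). Each of these lists keeps peaks with a score of at least 830, which stands for an irreproducible discovery rate (IDR) of 0.01. Ranked lists, which hold weaker candidates too, run to 54625 peaks in replicate 1 and 48976 in replicate 2. Read depth is unknown. The stretch from 1000 bp upstream to 200 bp downstream of any annotated transcript 5' end is called the promoter window here, and genes with a summit in it are called bound. All positions are on ce11 (WBcel235) and counted from 1.

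The promoters of 4 linker histone genes carry a common stretch of sequence just before the gene, and their sequences are shown because the PBRM-1 summits of 3 of them fall on it or within a few bases in the series list. Each line gives the 120 bases that end at the base before the annotated 5' end, on the plus strand, read from the RefSeq copy of the assembly. The regions are X:14489974-14490093 for his-24, X:8159049-8159168 for hil-3, V:4754193-4754312 for hil-4 and IV:6294120-6294239 for hil-2. Capitals mark the 21-base element ATGTGTCCCNNCAGGGTGGTA, in which 19 bases are fixed.
his-24: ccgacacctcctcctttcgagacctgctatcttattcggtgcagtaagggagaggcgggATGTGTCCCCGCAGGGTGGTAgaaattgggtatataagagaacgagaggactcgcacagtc
hil-3: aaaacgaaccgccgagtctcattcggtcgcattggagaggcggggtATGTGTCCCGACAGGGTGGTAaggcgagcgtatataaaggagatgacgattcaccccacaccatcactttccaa
hil-4: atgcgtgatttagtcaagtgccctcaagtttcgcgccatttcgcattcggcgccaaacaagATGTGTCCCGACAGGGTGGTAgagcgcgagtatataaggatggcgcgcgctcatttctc
hil-2: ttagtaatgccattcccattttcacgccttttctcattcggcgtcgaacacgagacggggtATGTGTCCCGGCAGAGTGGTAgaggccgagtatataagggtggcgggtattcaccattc
Over the 19 fixed bases hil-2 differs by the single substitution G15A, counted from the first base of the element, and the 2 unfixed bases vary among the genes. In all 4 promoters the hexamer TATATA follows the element after 9 intervening bases. It starts 31 bases before the 5' end of his-24, 29 before those of hil-2 and hil-4 and 44 before that of hil-3. The element was picked out after the sequences and peaks had been seen, as the longest ungapped stretch that the his-24, hil-3 and hil-4 sequences share with at most 2 columns differing.

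No copy of the element, with up to 4 mismatches allowed, was nearest to any of the variant genes. Their summits are shown with 60 bases to each side, in the direction of the gene, with the summit and the 5 bases to each side of it in capitals, so that the summits near to and far from a gene can be set side by side. The regions are IV:4445859-4445979 on the plus strand for htz-1 and, on the minus strand, III:12369639-12369759 for his-72, III:9617080-9617200 for the far hcp-3 summit and III:9616502-9616622 for the near one.
htz-1: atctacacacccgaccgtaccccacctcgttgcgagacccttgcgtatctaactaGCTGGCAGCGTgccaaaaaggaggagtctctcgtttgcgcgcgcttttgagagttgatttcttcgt
his-72: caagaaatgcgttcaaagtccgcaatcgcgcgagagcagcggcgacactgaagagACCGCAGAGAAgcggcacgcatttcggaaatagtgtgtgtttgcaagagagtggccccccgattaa
hcp-3 (far): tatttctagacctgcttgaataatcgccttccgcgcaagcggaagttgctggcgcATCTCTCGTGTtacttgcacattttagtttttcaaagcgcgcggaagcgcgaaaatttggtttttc
hcp-3 (near): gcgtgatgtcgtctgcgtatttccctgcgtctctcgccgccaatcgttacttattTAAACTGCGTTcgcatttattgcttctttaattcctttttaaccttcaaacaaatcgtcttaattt
None of these 4 windows overlaps an annotated exon. Of the linker histone stretches shown before them, that of his-24 overlaps 1 annotated exon, and those of hil-2, hil-3 and hil-4 overlap none.

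PBRM-1 was called at most of these genes. In the series list 6 of 10 (60%) were bound, where 1971 of all 19973 protein-coding genes were (9.87%). The bound genes were his-24, hil-3, hil-4, his-72, htz-1 and hcp-3, and the unbound ones were hil-1, hil-2, his-71 and his-74. The conservative series list gave the same 6 genes, with a background of 8.99%. Replicate 1 called 5 of 10 (50%) against a background of 4.63%, and replicate 2 called 6 of 10 against 7.63%. The 5 genes of replicate 1 were all called in replicate 2, and hil-3 was the gene called in replicate 2 alone. The members' share was thus several times the background in each of the 4 lists, but the genes are not replicates of a condition and the shares carry no test. No member was called through its gene body in the series list without also being called at its promoter. The share of all protein-coding genes with a summit in either place was 12.6%.

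**Figure D1:**
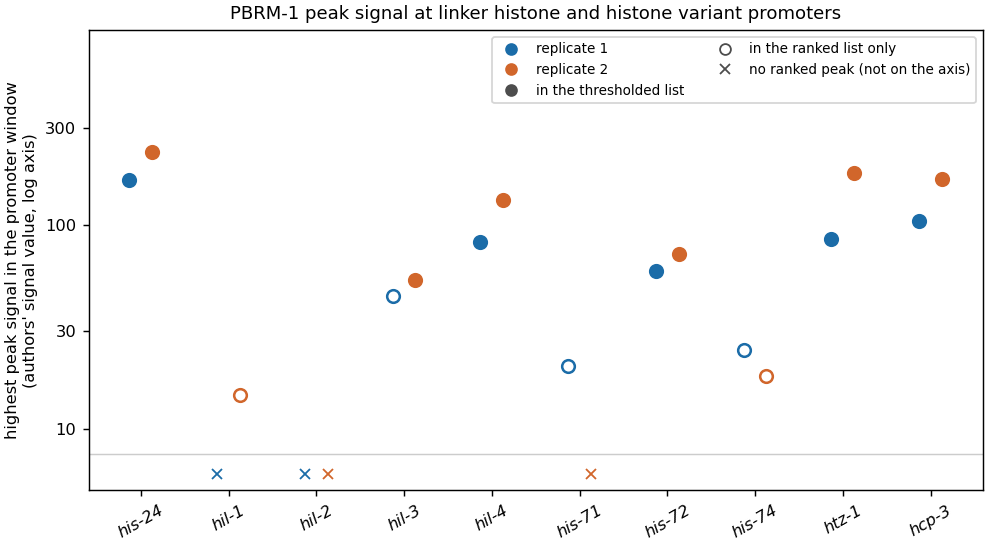
Highest peak signal in the promoter window of each gene (vertical log axis, the authors' signal value) in replicate 1 and replicate 2, from each replicate's ranked list. Filled points are peaks that also passed the replicate's IDR threshold, open points passed only the ranked list, and crosses below the axis break stand for no ranked peak. The 6 bound genes lie between 44.8 and 227, while no unbound gene exceeds 24.2.

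Among the linker histones, his-24 carried the strongest peak of the set. The gene (WBGene00001898) lies at X:14490094-14491119 on the plus strand, and its peak at X:14489951-14490156 had its summit 38 bp upstream of the 5' end. The signal was 393 in the series list, 165 in replicate 1 and 227 in replicate 2. Only 84 genes had a higher promoter signal in the series ranked list, and his-24 lay above 99.6% of genes there and in each replicate. Both replicates were high at this gene, and their summits lay 12 bp apart. The summit falls inside the annotated noncoding RNA gene M163.19, so the peak cannot be given to his-24 alone.

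At hil-4 (WBGene00001855, V:4754313-4755453, plus strand) the series peak, V:4754228-4754324, had its summit 34 bp upstream of the 5' end. The peak was 97 bp wide in that list, 284 bp in replicate 1 and 296 bp in replicate 2, the last 2 being the median widths of their lists. Its signal was 213 in the series list, 81.9 in replicate 1 and 133 in replicate 2. It exceeded 98.5% of genes in the series ranked list, and the replicate summits lay 2 bp apart. Both replicates called it, and no other protein-coding gene had the summit in its window.

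The weakest of the bound linker histones was hil-3 (WBGene00001854, X:8159169-8160084, plus strand). Its peak, X:8158944-8159263, had a series signal of 86.8, below the list's median, with the summit 65 bp upstream of the 5' end. Replicate 2 called it with a signal of 53.9. Replicate 1 had the peak in its ranked list with a signal of 44.8 and a score of 501, under the threshold. The summits of the replicates lay 1 bp apart, so the replicates placed this peak alike although it passed the threshold in 1 of them. It still exceeded 94.8% of genes in replicate 1 and 93.6% in replicate 2.

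The remaining linker histones had no call. At hil-1 (WBGene00001852, V:14949777-14952799), the linker histone least like the others in coding sequence (51.1% to 54.6% identical to them), the highest promoter signal was 32.0 in the series ranked list and 14.6 in replicate 2, and replicate 1 had no ranked peak in the window. The nearest series peak to hil-1 lay 41.9 kb away, with a signal of 64.4. From 1000 bp upstream to its end, 79.6% of the 50-base words of hil-1 occur once in the genome, and all of those in its promoter window do. At hil-2 (WBGene00001853, IV:6294240-6295217) no ranked list held a peak in the window or the gene body, and it was the one member of which this was true. Of all genes, 34.0% had no ranked peak in the window in the series list, 47.1% in replicate 1 and 50.6% in replicate 2. The nearest series peak to hil-2 was 27.6 kb away.

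**Figure D2:**
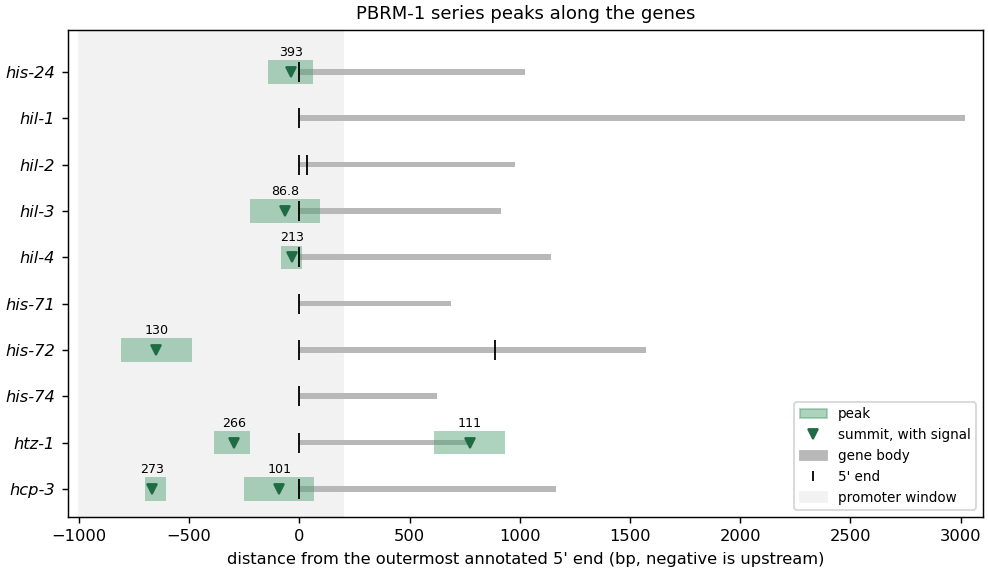
Series peaks (green bars) with their summits (triangles, the number is the authors' signal) along each gene, drawn to scale from the outermost annotated 5' end (horizontal axis, bp). The linker histone summits of his-24, hil-3 and hil-4 lie 38, 65 and 34 bp upstream, whereas his-72 and the stronger hcp-3 peak lie 649 and 670 bp upstream.

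The linker histone summits lay close to the gene, on the shared element or just past it. In the series list the summit fell inside the element in hil-3, 3 bp past it in his-24 and 5 bp past it in hil-4. In replicate 1 the summits of hil-3 and hil-4 were inside it and that of his-24 was 4 bp past it. Replicate 2 had hil-3 and hil-4 inside as well, with his-24 16 bp past. The median gap between replicate summits was 24.0 bp over 3166 series peaks. The offsets were counted from the nearer edge of the 21-base element, so they cannot be compared with that gap. The element was also picked after the peaks had been seen, from the 120 bases before these genes. Its closeness to their summits therefore cannot be tested with these genes. The hil-2 promoter, with 1 mismatch, the same TATATA spacing and a coding sequence 73.1% identical to hil-3, had no ranked peak. The linker histone hil-5, which is not among the 10 genes, has the element with no mismatch and no TATATA within 20 bases of it. Its summit lay 19 bp past the element in the series list, with a signal of 140, and replicate 1 had no ranked peak in its window.

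**Figure D3:**
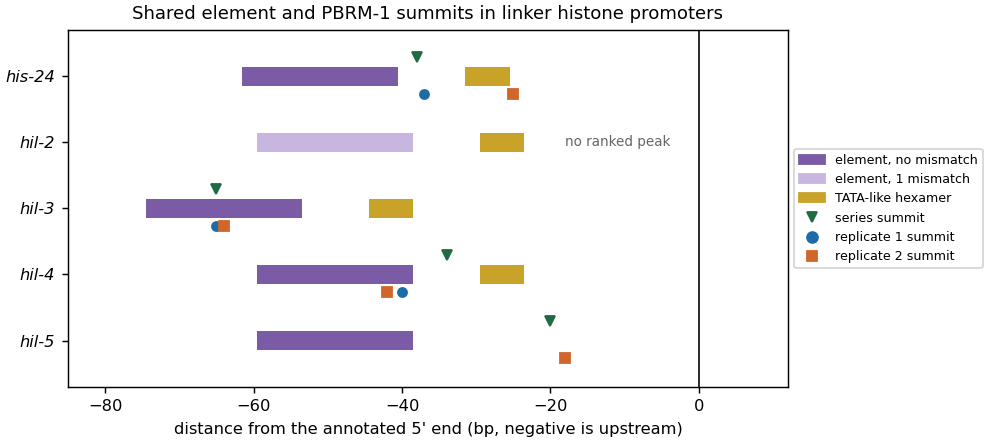
The 21-base element, the hexamer TATATA and the PBRM-1 summits in 5 linker histone promoters, in bp from the annotated 5' end. The summits of hil-3 and hil-4 sit on or within 5 bp of the element, that of his-24 sits 3 to 16 bp past it, and hil-2 has no ranked peak.

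With at most 1 mismatch the element is rare across the genome and not limited to linker histones. Since it was defined from his-24, hil-3 and hil-4, those 3 sites are left out of the counts of sites in peaks. They are kept in the 2 shares given last. It occurred without mismatch at 9 sites and with 1 mismatch at 10. Of the other 6 exact sites 4 lay in a series peak, 2 in a peak of replicate 1 and 4 in a peak of replicate 2, while series peaks cover 0.956% of the nuclear genome. That coverage is not a matched background. The sites at hil-5 and K07C5.13 lie just upstream of a 5' end, and hil-5 is a relative of the defining genes. Of the sites with at most 1 mismatch, 4 further ones were nearest to a linker histone gene, of which 1 lay in a series peak, and 12 were nearest to other genes, of which 5 did. The TATATA hexamer followed within 20 bases at 2 of those 4 linker histone sites, in hil-2 and hil-6, and at 0 of the 12 others. With 3 mismatches 4 of 18 sites lay in a series peak, and with 4 mismatches 5 of 58 did. Among these sites were copies upstream of other genes named his, on the strand of the gene. Those at his-31, his-32, his-60, his-62, his-64, his-67 and his-68 lay in series peaks, with signals from 87.6 to 1218. Those at his-14 and his-46 lay in none. The his-31 and his-32 copies shared 1 peak (87.6), and the his-67 and his-68 copies shared another (1218), so sites are more than peaks here. The remaining sites in series peaks were nearest to F37A8.5 and nhr-255. Promoters, taken from 250 bases before to 50 after the 5' end, held the exact element in 5 of 19973 genes (0.0250%), among them the 3 genes that defined it. Among series peaks, 7 of 3243 (0.216%) held it within the 300 bases around the summit, these 3 genes included. Because the element was defined from 3 bound genes, these 2 shares cannot be set against each other. A match is a description of the sequence and does not show what binds there.

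**Figure D4:**
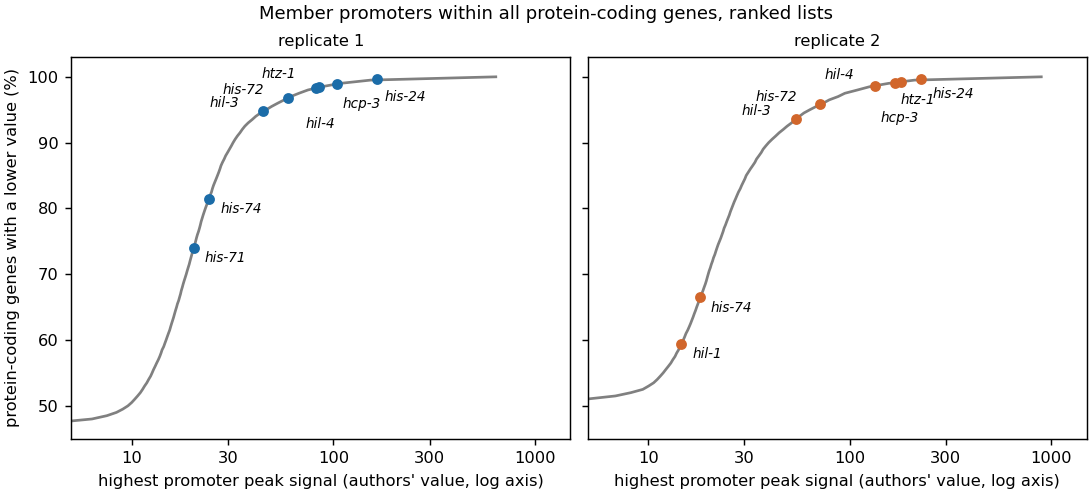
Percentage of protein-coding genes with a lower highest promoter signal (vertical axis) against that signal (log axis, the authors' value) in the ranked list of each replicate, with the members marked on the curve of all genes. The 6 bound genes sit at 93.6% or above in both replicates. Members without a ranked peak in a replicate are not drawn.

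Of the H3.3 genes, 1 of 3 was bound. The gene his-72 (WBGene00001946, III:12367475-12369050, minus strand) had a peak at III:12369539-12369858 with a signal of 130 in the series list, 59.4 in replicate 1 and 71.6 in replicate 2. The summit lay 649 bp upstream of the outer of its 2 annotated 5' ends, and the replicate summits lay 38 bp apart. Both replicates called this peak, but it also lies in the window of rpt-6, which encodes a proteasome ATPase and starts on the other side, 757 bp away. The summit is closer to his-72, and which of the genes it belongs to was not tested. A weaker candidate nearer the gene, 127 bp upstream, had a series ranked signal of 55.4 and a score of 701 and passed no threshold.

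The other H3.3 genes had no promoter call in any thresholded list. At his-71 (WBGene00001945, X:7981382-7982070, minus strand) the highest promoter signal was 25.6 in the series ranked list, above 55.5% of genes, and 20.2 in replicate 1, and replicate 2 had no ranked peak in the window. The nearest series peak was 24.6 kb away. At his-74 (WBGene00012276, V:12659704-12660330, minus strand) the highest promoter signal was 24.2 in replicate 1 and 18.1 in replicate 2. Of the series ranked lists, 1 had no peak in the window and the other had one with a signal of 43.1, above 79.0% of genes. A series peak with a signal of 120 lay 706 bp downstream of the his-74 5' end, past the end of the gene, with its summit 4 bp upstream of ccch-3. Replicate 2 also listed a peak in the his-74 body with a score of 1000 but a signal of 7.36 and a caller q value of 0.953, rank 2136 of 2173 by signal. The H3.3 genes are alike in coding sequence (his-71 and his-72 78.4% identical, his-71 and his-74 82.6%, his-72 and his-74 74%) but their windows are distinct. The his-72 coding sequence aligned was 453 bases long and those of his-71 and his-74 were 408, so these percentages do not rank the genes by likeness. Every 50-base word of the 3 promoter windows occurred once in the genome, and the read length of the libraries is not known.

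The H2A.Z gene htz-1 (WBGene00019947, IV:4446216-4446999, plus strand) had peaks on both sides. The upstream peak, IV:4445828-4445991, had a signal of 266 in the series list, 84.8 in replicate 1 and 179 in replicate 2, with the summit 297 bp upstream of the 5' end. The replicate 2 signal was 2.11 times that of replicate 1, above the third quartile of 1.69 among all series peaks with both values, where the median was 1.34. The replicate summits lay 6 bp apart. This summit lies between htz-1 and the divergent gene wapl-1, which encodes a cohesin release factor, and is nearer to wapl-1 (179 bp). Counted for the nearest gene alone, htz-1 would not be called.

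A second htz-1 peak, IV:4446829-4447148, had its summit 10 bp before the annotated end of the gene. Its signal was 111 in the series list and 72 in replicate 2, and replicate 1 held it in the ranked list alone with 40.3. The summit is also 342 bp upstream of the next gene, chat-1, a noncatalytic subunit of a phospholipid flippase. Its 100 bases held 33.0% G and C, the lowest of the 8 member peaks, against a median of 48.0% over all series peaks.

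The CENP-A gene hcp-3 (WBGene00001831, III:9615306-9616470, minus strand) had 2 peaks in its promoter window. Among the 1971 bound genes, 231 (11.7%) had 2 or more. The far peak, III:9617075-9617172, had its summit 670 bp upstream and a signal of 273 in the series list, 104 in replicate 1 and 167 in replicate 2. The near peak, III:9616402-9616721, had its summit 92 bp upstream and a signal of 101 in the series list and 60.8 in replicate 2. Replicate 1 listed the near peak only among its ranked candidates, with a signal of 46.1 and a score of 730. The far peak was the stronger in both replicates, and both summits were placed within 20 bp between replicates. No other protein-coding gene had either summit in its window, and a piRNA gene, 21ur-9360, lies within 500 bp of the near one.

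By series signal the bound genes ran his-24, hcp-3, htz-1, hil-4, his-72 and hil-3. In replicate 1 the order was the same, and the values of htz-1 (84.8) and hil-4 (81.9) were nearly equal. In replicate 2 htz-1 (179) stood above hcp-3 (167). Only hcp-3 and htz-1 changed places between the replicates. The order of the other genes was the same in both, and with 2 replicates it carries no test. The median of the 6 highest signals was 239, and that over all bound genes was 107. Taking the highest peak of each gene, the median summit of the 6 genes lay 181 bp upstream and 3 of 6 (50%) lay within 100 bp of the 5' end. For all bound genes the median was 256 bp upstream and 17.8% lay within 100 bp. With any promoter summit counted, hcp-3 joined them, giving 4 of 6 (66.7%), where 394 of all 1971 bound genes (20%) had such a summit. Annotated 5' ends of worm genes are often trans-splice sites rather than transcription starts. The acceptor word TTTCAG stood directly before the 5' end of his-71 and htz-1 and of 16.8% of all genes, and of none of his-24, hil-3 and hil-4. Only the exact word was counted. Words that differ from it by 1 base stood before hil-1 (TTTTAG), his-74 and the inner 5' end of his-72 (both TTCCAG).

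Short words searched on both strands, overlaps allowed, showed no common pattern across the 10 promoters. The promoters of his-24, hil-2, hil-3 and his-72 held CCCGCC, which 8.09% of all promoters hold. TATAAA was in 5 of 10 (42.5% of all), GAGAG in 6 (44.9%), TTTTTTT in 3 (57.0%), TTTGAA in 2 (67.4%) and CTGCGTC in 1 (5.43%). CCCGCC was thus the word whose share among members lay furthest above its share among all promoters, and 1 of its 4 carriers, hil-2, was unbound. Around the 8 member summits, GAGAG was in 7 windows of 300 bases, where 53.7% of all series peaks had it. TTTGAA was in 5 (46.6% of all series peaks), TATAAA in 3 (23.6%) and CCCGCC in 2 (13.5%). CTGCGTC was in 1 (12.1%) and TTTTTTT in 1 (38.9%). The 7 promoter summits had between 39.0% and 57.0% G and C in 100 bases, and 6 of them were at 50% or above.

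**Figure D5:**
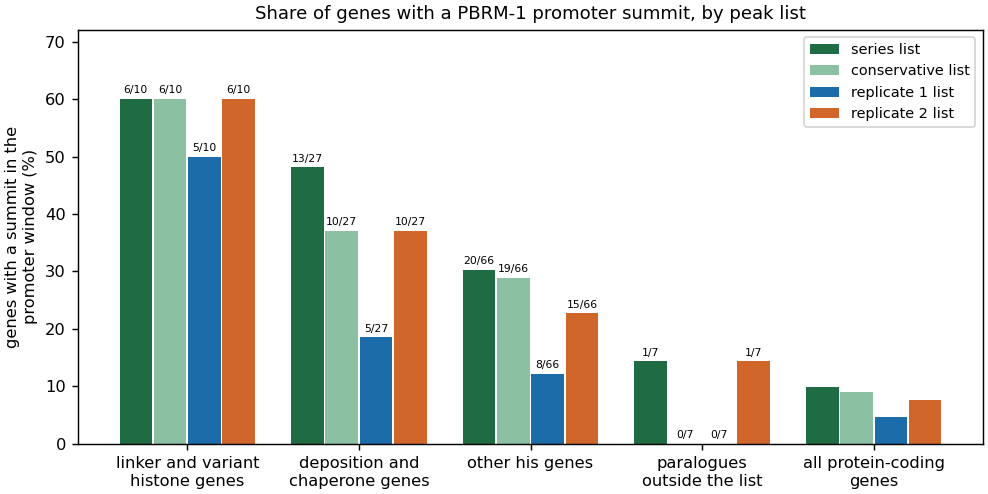
Percentage of genes with a summit in the promoter window (bars start at 0) in 4 peak lists, for the 10 genes, the deposition and chaperone genes, the other genes named his, the paralogues and all protein-coding genes, with counts above the bars. The 10 genes stand at 50% to 60% in all 4 lists, and all protein-coding genes at 4.63% to 9.87%.

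The factors that place these histones were bound as well in part. Of 27 genes for histone chaperones, centromere loading factors and subunits of complexes that exchange H2A.Z, 13 (48.1%) were bound in the series list, 10 (37.0%) in the conservative list, 5 (18.5%) in replicate 1 and 10 in replicate 2. The shares of all genes in these lists were 9.87%, 8.99%, 4.63% and 7.63%. The 5 genes called in both replicates were unc-85, lin-53, nasp-2, ekl-4 and epc-1. The highest signals were 407 at lin-53, an RbAp46/48-type H3-H4 chaperone, 344 at ekl-4, the DMAP1 homologue, and 264 at unc-85, an ASF1-type H3-H4 chaperone. Next came epc-1, related to Enhancer of Polycomb, with 255, nasp-2, a NASP-type H3 chaperone, with 164, and hcp-4, the CENP-C homologue, with 146. The RuvB-like ATPase genes ruvb-1 and ruvb-2 had 134 and 125. Among the unbound genes of this list were hira-1, the H3.3 chaperone, knl-2, needed to load HCP-3, and ssl-1, the SWR1-type ATPase.

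Close relatives outside the set were called at a share near the background. Of 7 paralogues (hil-5, hil-6, hil-7, hil-8, his-69, his-70 and cpar-1), 1 (14.3%, against 9.87% of all genes) was bound in the series list, hil-5, with a summit 20 bp upstream and a signal of 140. Replicate 2 called it with 88.5, and replicate 1 and the conservative list did not. The CENP-A paralogue cpar-1 reached 55.0 in the series ranked list, against 273 for hcp-3. The H3.3-like genes his-69 and his-70 reached 39.1 and 31.3, and hil-6 and hil-7 57.4 and 52.6, while hil-8 had no ranked peak in its window there. The other series ranked list held no peak in the windows of hil-5, hil-6, hil-8 and cpar-1. The replicate 2 ranked list held none in those of hil-6 and cpar-1. Of the 66 other genes named his, most of them core histone genes in clusters, 20 (30.3%) were bound in the series list and 6 in both replicates. Their copies are near-identical, so reads can be shared among them and these counts are uncertain.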

How the data were processed

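PBRM-1 ChIP-seq was analysed from 8 ce11 peak lists of 2 biological replicates in 1 group. Per the labels, sonicated chromatin was recovered with an anti-GFP antibody. No aligner, caller or read filter is given in the sources used here. For each peak the authors deposited a signal value of unstated scaling, a score that is a scaled IDR reaching 1000, the q value as −log10, and in the ranked lists the IDR as −log10. These values were used within 1 list, apart from the ratio of replicate 2 to replicate 1 signal. Read depth is unknown, so no interval or detection limit is given, and the number of peaks limits precision. A signal ratio between replicates also holds their difference in scale.

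From the lists, summits were placed on genes of Ensembl release 115 (WBcel235), and 0 peaks reached past a chromosome end. A summit in several windows counted for each of those genes. Only nuclear protein-coding genes were counted. For each gene the highest signal of a ranked peak in the window was taken. One series-level ranked list holds all peaks of the series list and the other all 2917 of the conservative list, and the first is the one quoted unless stated. Sequence came from the RefSeq copy of the assembly. The element was searched on both strands with up to 4 mismatches. Coding sequences were aligned globally over their whole length. The planned protein comparison was replaced by this, because no protein table was used here. Python 3.11.15, pandas 2.3.3 and numpy 2.4.6 were used, and the counting was tested on simulated data. Counts and shares carry no test. Named genes were all 10 members, genes sharing their summits, the 8 bound deposition genes of largest signal, every paralogue and the nearest peak to each unbound member. The 3 unbound deposition genes, the his-74 body peak and the element and its sites were chosen after their values were seen. The members and lists were chosen with earlier results of these data known. Alternatives were other windows, lists, a q filter, a signal filter, nearest gene only and each replicate alone.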

Additional observations from a re-analysis of the deposited data

How the results depend on the processing

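Across 10 alternatives the number of bound members stayed within 1.5 times its value, as did the number with a summit in the window or gene body. Leaving out a replicate gave 5 to 6 bound members, 5 to 10 deposition and chaperone genes, 0 to 1 paralogues and 4.63% to 7.63% of all protein-coding genes, the lower value each time without replicate 2. The conservative list gave 0 paralogues. With peaks at or above the median signal, 6.01% of all genes were bound. Single calls lost were hil-3 without replicate 2 and with the median signal filter, his-72 with a window of 500 bp upstream to 100 bp downstream, and htz-1 with the nearest gene only. No paired analysis was possible because there is 1 group. With peak lists alone, a gene without a peak cannot be told from one below the depth of the libraries.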

Other observations

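Beyond the linker histones, 5 copies of the 21-base element with at most 1 mismatch lay in series peaks. The strongest was in an intron of max-2, with a signal of 1408 in the series list, 617 in replicate 1 and 788 in replicate 2. A copy with its middle 28 bp upstream of K07C5.13, on the opposite strand, lay in a peak of 1169, with 503 and 627 in the replicates. The copies with 1 mismatch nearest to the core histone gene his-37 and to lin-9, a DREAM complex gene, lay in peaks of 439 and 227. Their middles lay 90 bp upstream of the his-37 5' end and 2835 bp downstream of that of lin-9. A copy nearest to Y71A12B.10 lay in a peak of 98.7. The exact copies nearest to srh-303 and emb-4 lay in no thresholded peak, so an exact copy was not always accompanied by a call. At hil-6 a copy with 1 mismatch, followed by TATATA after 9 bases, lay in a series ranked peak of 57.4 that passed no threshold. These sites were chosen after their values were seen, and their relation to PBRM-1 was not tested.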
